A study of Mus musculus with 2 samples.

Results

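Of 20300 protein-coding transcription start sites (TSSs) on mouse chromosomes 1 to 19, 7162 lay in a gap between H3K4me1 peaks, with the mark on both sides and none on the TSS itself. They were chosen on the mm10 genome from the authors' list of replicated peaks. No peak of that list touched the 100 bp on either side of the TSS, while at least 1 peak overlapped the stretch from 100 to 1500 bp upstream and at least 1 overlapped the same stretch downstream, in the direction of transcription. Each gene record gave 1 TSS, its 5′ end, and 365 further genes for which no strand was found were left out. The flanked promoters made up 35.3% of the TSSs. Of the other TSSs, 5773 had a peak within 100 bp, 1327 had the mark on the downstream side only, 781 had it on the upstream side only, and 5257 had no peak within 1500 bp.

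The peaks come from chromatin immunoprecipitation and sequencing (ChIP-seq) of H3K4me1 in E14TG2a.4, a line of male embryonic stem cells from mice of strain 129/Ola. There were 2 biological replicates, with no treatment named, and no other group, so every comparison is between promoters of the same cells. Promoters are not replicates, and no test was run across them. The replicates come from the same line, and nothing in the labels says whether they were separate cultures. The deposited lists hold 313453 peaks for replicate 1, 325226 for replicate 2 and 226060 in the replicated list, and no read counts, so the depth is unknown. A peak list covers the whole culture, so the share of cells or alleles that carry the mark at a promoter was not measured. The label was set against marker promoters. Of 14 embryonic stem cell markers, 13 had a peak within 1500 bp of the TSS and Tdgf1 had none. Of 10 fibroblast markers, a cell type used as feeder layer, 8 had such a peak and Col3a1 and Dcn had none. Over all TSSs 74.1% had such a peak, so neither count identifies the cells, and the part of feeder cells in any value was not tested.

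H3K4me1 is the monomethylated form of lysine 4 on histone H3. It is laid down mainly by the MLL3 and MLL4 methyltransferases and is best known as a mark of enhancers. At active promoters the same lysine is usually trimethylated next to the TSS, by SET1 and MLL complexes that are drawn to CpG-rich DNA by CXXC-domain proteins, and monomethylation is found farther out. Trimethylation, transcription and nucleosomes were not measured in these samples.

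The gaps differ in width by more than 10 times, and the DNA of their promoters differs too. The bases printed here lie directly upstream of the TSS and end at the base before it. They were read on the strand of the gene from the RefSeq promoter table of GRCm38.p6, the assembly that mm10 represents, and CpG dinucleotides are in capitals. They come from members that also met the rule in the lists of both replicates and had a table sequence for the TSS used here. These members also had no opposite-strand TSS within 1000 bp and no other gene record over the printed bases. The 3 with the widest gap and the 3 with the narrowest are shown. The wide-gap promoters are those of Rap2a, a small GTPase of the Ras family (chr14:120478311-120478460, plus strand), of Ankrd11, a chromatin cofactor with ankyrin repeats (chr8:123042285-123042434, minus strand), and of U2surp, a protein associated with the U2 spliceosomal particle (chr9:95511997-95512146, minus strand).
Rap2a: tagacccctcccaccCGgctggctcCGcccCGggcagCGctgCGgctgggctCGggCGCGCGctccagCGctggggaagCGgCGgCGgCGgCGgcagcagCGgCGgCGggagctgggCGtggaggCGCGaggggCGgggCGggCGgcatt
Ankrd11: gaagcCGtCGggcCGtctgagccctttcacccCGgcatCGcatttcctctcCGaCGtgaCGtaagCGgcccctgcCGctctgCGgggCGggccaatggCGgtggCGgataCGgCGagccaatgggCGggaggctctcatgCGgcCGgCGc
U2surp: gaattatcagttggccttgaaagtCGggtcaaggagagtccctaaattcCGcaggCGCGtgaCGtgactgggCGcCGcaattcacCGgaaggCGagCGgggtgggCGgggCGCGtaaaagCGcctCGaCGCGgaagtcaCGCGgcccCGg

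The narrow-gap promoters are those of Ccnb1ip1, a RING-finger protein needed for meiotic crossing over (chr14:50795729-50795878, minus strand), of Dnajc28, a J-domain protein (chr16:91619000-91619149, minus strand), and of Rasa4, a GTPase-activating protein for Ras (chr5:136083766-136083915, plus strand).
Ccnb1ip1: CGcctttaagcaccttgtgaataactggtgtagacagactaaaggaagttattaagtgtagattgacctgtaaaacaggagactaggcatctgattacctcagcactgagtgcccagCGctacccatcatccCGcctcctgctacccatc
Dnajc28: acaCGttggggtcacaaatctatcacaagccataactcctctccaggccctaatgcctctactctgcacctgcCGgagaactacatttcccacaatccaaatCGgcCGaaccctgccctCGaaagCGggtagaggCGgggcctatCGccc
Rasa4: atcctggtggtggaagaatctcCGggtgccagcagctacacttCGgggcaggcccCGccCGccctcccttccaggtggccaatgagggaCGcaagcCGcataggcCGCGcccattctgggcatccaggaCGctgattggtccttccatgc

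The 150 printed bases hold 24 CpGs at Rap2a, 20 at Ankrd11 and 20 at U2surp, against 3 at Ccnb1ip1, 8 at Dnajc28 and 9 at Rasa4. At Rap2a the gap was 2049 bp in replicate 1 and 2719 bp in replicate 2, a mean of 2384 ± 474 bp (SD, n = 2). The gap at Ankrd11 was 2633 bp in replicate 1 and 2546 bp in replicate 2, and that at U2surp was 2139 bp and 2488 bp in the same order. At Ccnb1ip1 it was 248 bp in replicate 1 and 289 bp in replicate 2, a mean of 268 ± 29.0 bp (SD, n = 2). Dnajc28 had gaps of 254 and 348 bp, and Rasa4 gaps of 247 and 358 bp, replicate 1 before replicate 2. The genes were picked for these gaps, so the contrast in width is not a finding.

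A further 3 sequences show gaps that hold a pair of genes transcribed away from each other. They are the bases between the starts of the pair, read on the strand of the gene named at the line. Pairs were taken in order of gap width from those spaced by 60 to 150 bp that were flanked in both replicates. They also had a table sequence for the TSS used here, no other gene record over the printed bases and a partner in a gene list described later. Mgat2 is an enzyme of N-glycan synthesis, and its neighbour Rpl36al encodes a ribosomal protein (chr12:69184068-69184157, plus strand). Zbtb26 encodes a zinc-finger protein, and its neighbour Rabgap1 a GTPase-activating protein for Rab proteins (chr2:37443173-37443262, minus strand). Ndufa11 encodes an accessory subunit of mitochondrial complex I, and its neighbour is Vmac (chr17:56717700-56717761, plus strand).
Mgat2: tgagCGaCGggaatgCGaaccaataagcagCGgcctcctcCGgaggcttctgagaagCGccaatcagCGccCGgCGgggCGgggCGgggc
Zbtb26: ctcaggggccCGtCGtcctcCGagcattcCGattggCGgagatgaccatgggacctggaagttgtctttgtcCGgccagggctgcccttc
Ndufa11: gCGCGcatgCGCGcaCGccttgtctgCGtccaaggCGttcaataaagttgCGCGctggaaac

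The starts of Mgat2 and Rpl36al are 91 bp apart, in a gap of 2050 bp in replicate 1 and 2115 bp in replicate 2. Those of Zbtb26 and Rabgap1 are also 91 bp apart, in a gap of 1956 bp in replicate 1 and 1845 bp in replicate 2. Ndufa11 and Vmac start 63 bp apart, in a gap of 1765 bp in replicate 1 and 2014 bp in replicate 2.

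The gap, counted as the bases between the nearest peak on each side, had a median of 1045 bp over the 7162 promoters. The quartiles were 752 and 1378 bp, and the range was 206 to 2871 bp, within the 201 to 2999 bp that the rule allows. Gaps of 500 to 1000 bp were the most common class, with 2747 promoters, and 294 promoters had a gap of 2000 bp or more. At the same promoters the median gap was 1011 bp in replicate 1 and 1217 bp in replicate 2, a mean of 1114 ± 146 bp (SD, n = 2). Replicate 2 gave wider gaps at most promoters. Of the 6344 members that met the rule in the lists of both replicates, the gap was wider in replicate 2 at 5135, or 80.9%, with a median difference of 140 bp. The order of the promoters was closer than their widths, with a Spearman correlation of 0.84 between the replicates across these 6344 genes. Genes are not independent replicates, and the value is a description.

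**Figure D1:**
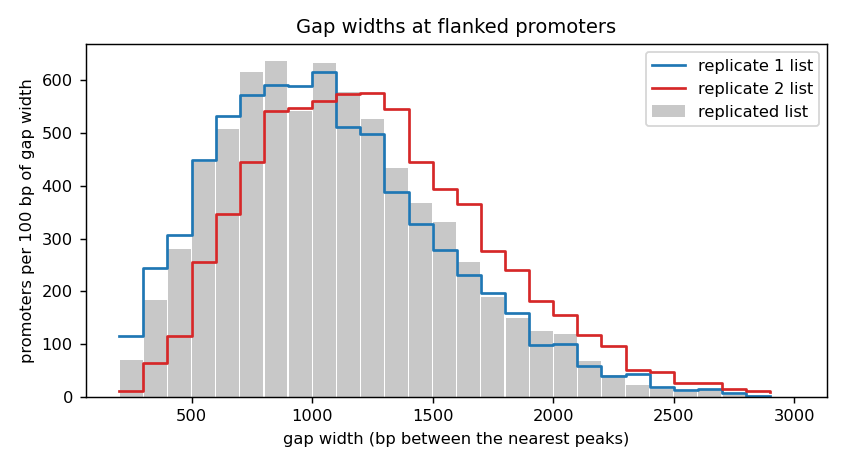
Number of flanked promoters per 100 bp of gap width, the bases between the nearest H3K4me1 peaks on each side of the TSS, for the replicated list (grey bars) and for the lists of replicate 1 (blue line) and replicate 2 (red line) at the same 7162 promoters. The curve of replicate 2 lies to the right of that of replicate 1, with medians of 1217 and 1011 bp.

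Applied to each replicate alone, the rule found 7282 TSSs (35.9%) in replicate 1 and 7835 (38.6%) in replicate 2, a mean of 7558 ± 391 (SD, n = 2). In the list of the pooled replicates it found 7543 (37.2%). All 226060 replicated peaks are in the pooled list with the same coordinates, so their edges need not match those of either replicate. Of the 7162 members, 6635 (92.6%) were flanked in replicate 1 and 6822 (95.3%) in replicate 2. The 6344 that were flanked in both lists were 88.6% of the members and 31.3% of all TSSs, and 49 members were flanked in neither. Where a member failed in replicate 1, a peak had mostly come within 100 bp of the TSS (389 members, against 138 that lacked a side). In replicate 2 it was the other way round, with 45 members with a peak at the TSS and 295 that lacked a side within 1500 bp. According to the deposited read-me files, 1 further file went into the lists of replicate 2 and of the pooled replicates. It did not go into that of replicate 1. The replicated peaks have the coordinates of the pooled list. The part of this file in the gap widths, and in the wider gaps of replicate 2, was not tested.

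The widest gaps among members flanked in both replicates were at Ankrd10, Dyrk1a, Zbtb8os, Rap2a and Zbtb25. Dyrk1a encodes a protein kinase of the DYRK family, Zbtb25 a zinc-finger transcription factor, and Zbtb8os a protein of the tRNA ligase complex. The gap of Ankrd10 was 2809 bp in the replicated list, 2437 bp in replicate 1 and 2821 bp in replicate 2. That of Dyrk1a was 2706 bp in the replicated list, 2354 bp in replicate 1 and 2745 bp in replicate 2. At Zbtb25 the lists gave nearly the same gap, 2664 bp in the replicated list against 2657 and 2723 bp in the replicates. Zbtb8os shares its gap of 2692 bp with Rbbp4, a histone-binding subunit of several chromatin complexes, whose TSS lies 162 bp away on the other strand. In replicate 1 small peaks inside that gap reduced it to 1778 bp, while in replicate 2 it was 2758 bp and Rbbp4 had the mark downstream only.

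The narrowest gaps were at Shc3, a neuronal adaptor protein, at Ccnb1ip1, at Car8, a carbonic anhydrase-related protein of Purkinje cells, at Dlgap3, a postsynaptic scaffold protein, and at Ciz1, a nuclear zinc-finger protein. Shc3 had a gap of 218 bp in the replicated list, 300 bp in replicate 1 and 445 bp in replicate 2. Car8 had 235 bp in the replicated list, 215 bp in replicate 1 and 403 bp in replicate 2, and Ciz1 had 250, 303 and 253 bp in that order. Dlgap3 rests on a small peak of 300 bp just downstream of its TSS. That peak was present in replicate 1, where the gap was 244 bp, and absent in replicate 2, where it was 1537 bp.

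**Figure D2:**
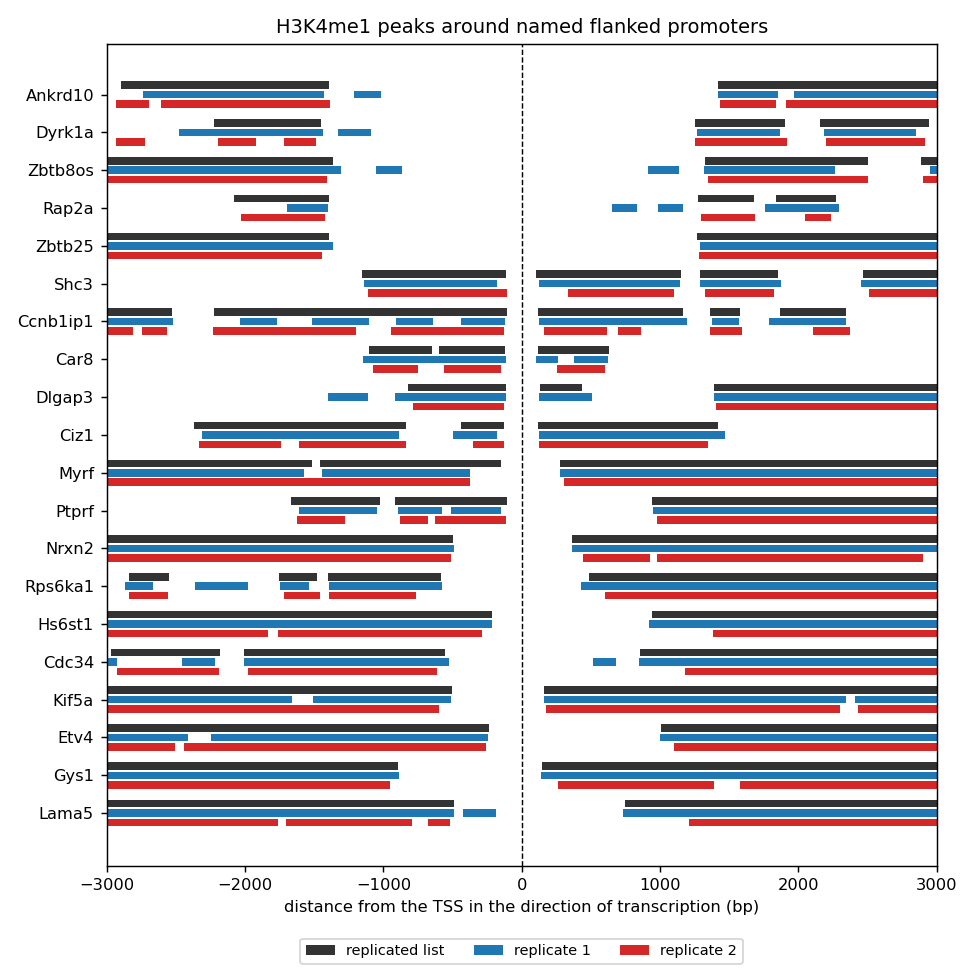
H3K4me1 peaks within 3000 bp of the TSS at the 20 flanked promoters named for their gap (the 5 widest and the 5 narrowest), for the width of their flanking peaks (5) and for the signal of the weaker flanking peak (5). Each row has the replicated list above, replicate 1 in the middle and replicate 2 below, drawn to scale in the direction of transcription, and the dashed line is the TSS. The gap at Ankrd10 is 2809 bp and that at Shc3 is 218 bp, and the small downstream peak at Dlgap3 is missing in replicate 2.

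The members named here as next to the limits of the rule failed it in replicate 2. Such failures were not counted over all members near the limits. Abcc8, the sulphonylurea receptor subunit of the ATP-sensitive potassium channel, and Arpc3, a subunit of the actin-nucleating Arp2/3 complex, were just inside it, with an upstream peak edge 101 bp from the TSS. In replicate 2 Abcc8 had no downstream edge until 76397 bp, and Arpc3 had an upstream edge at 95 bp, and both were flanked in replicate 1. The transcriptional repressors Tgif2 and Bcl6 were members with a downstream edge at 1500 and 1499 bp, and in replicate 2, where these edges lay at 1898 and 1544 bp, both had the mark upstream only. Aatk, a protein kinase, and Agpat2, an enzyme of phospholipid synthesis, were just outside, because a peak covered 1 base of the central window. Aatk was flanked in replicate 1 and had an edge at 96 bp in replicate 2. Agpat2 was flanked in both replicate lists, with gaps of 881 bp in replicate 1 and 884 bp in replicate 2.

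The gap was not centred on the TSS. The upstream peak edge lay at a median of 345 bp and the downstream edge at 622 bp, so that the middle of the gap was at a median of 116 bp downstream of the TSS. The downstream edge was the farther of the pair at 5244 promoters, or 73.2%. Each TSS is the 5′ end of its gene record, so further starts within the record can lie only downstream of it. The part of such starts in the offset was not tested. In replicate 1 the median edges were 342 bp upstream and 607 bp downstream, and in replicate 2 they were 432 and 715 bp. An upstream edge less than 200 bp from the TSS, next to the limit that the rule sets, was present at 1851 promoters (25.8%), and such a downstream edge at 374 (5.22%). Distances on the sides of the same promoter had a Spearman correlation of 0.15 across members.

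The nearest downstream peak was also the larger. It had a median width of 1185 bp, against 860 bp for the nearest upstream peak, and 692 bp for all 226060 replicated peaks. It was the wider of the pair at 4719 promoters (65.9%) and lay wholly inside the gene at 6845 (95.6%). The authors' signal value of these peaks had a median of 5.80 downstream, 5.22 upstream and 4.22 over all replicated peaks, with the downstream value the higher at 4129 promoters (57.7%). The summit, the highest point of a peak as the authors' caller gave it, lay at a median of 1182 bp downstream and 808 bp upstream. Both flanks held a single peak at 5415 promoters (75.6%). Widths and signal values on the sides of the same promoter had Spearman correlations of 0.19 and 0.24 across the 7162 members.

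Members with the widest flanking peaks, summed over both sides, were Myrf, a transcription factor of myelination, Ptprf, a receptor tyrosine phosphatase, Nrxn2, a presynaptic adhesion protein, Rps6ka1, a kinase of the RSK family, and Hs6st1, a heparan sulphate sulphotransferase. At Myrf the downstream peak was 22811 bp wide and the upstream peak 1309 bp. At Nrxn2 the wide peak was upstream, with 16624 bp against 2698 bp downstream. The gaps of these 5, beside the median of 1045 bp over all members, were 427 bp at Myrf, 858 bp at Nrxn2, 1049 bp at Ptprf, 1074 bp at Rps6ka1 and 1161 bp at Hs6st1. Cdc34, a ubiquitin-conjugating enzyme of the cell cycle, had the highest signal value of the weaker flanking peak, 12.9, with 13.5 on the upstream side. It was followed by Kif5a, a kinesin motor of neurons (12.9), Etv4, an ETS transcription factor (12.5), Gys1, the muscle glycogen synthase (12.5), and Lama5, a laminin chain (12.1). The downstream edge at Cdc34 differed between the replicates, with a gap of 1043 bp in replicate 1 and 1792 bp in replicate 2, while Etv4 had 1240 and 1359 bp.

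The rule did not use the DNA sequence, and the members differed in it from the other TSSs. The ratio of observed to expected CpGs in the 500 bp on each side of the TSS, which is 1 where CpGs are as frequent as the C and G content predicts, had a median of 0.774 at 6992 flanked promoters with a sequence. It was 0.341 at the TSSs that were not flanked and 0.593 over all. By class, it was 0.507 where a peak lay on the TSS, 0.674 with the mark downstream only, 0.726 with the mark upstream only and 0.159 with no peak. A CpG-rich stretch, meaning joined windows of 200 bp with at least 50% G and C and a ratio of at least 0.6, covered the TSS at 6548 flanked promoters (93.6%), against 41.9% of those not flanked and 60.7% of all TSSs. A ratio under 0.4 was found at 350 flanked promoters, or 5.01%, against 55.2% of those not flanked.

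With all TSSs in deciles of the CpG ratio, the flanked share was 1.87% in decile 1, 4.15% in decile 2, 6.12% in decile 3 and 10.4% in decile 4. It was 28.6% in decile 5, 48.6% in decile 6 and between 59.6% and 68.8% in deciles 7 to 10. TSSs with a peak within 100 bp were most frequent in between, with 55.8% in deciles 4 and 5, and TSSs with no peak made up 85.6% of decile 1. Along the promoter the median CpG ratio of the flanked class was highest in the 200 bp after the TSS, at 0.898, and 0.828 in the 200 bp before it. At 600 to 800 bp from the TSS it was 0.350 upstream and 0.476 downstream.

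Wider gaps went with longer CpG-rich stretches. In 3174 flanked promoters whose sequence was placed by an exact match of 100 bases, the median gap in quintiles of stretch length was 757, 850, 1004, 1155 and 1411 bp, from short to long. In replicate 1 the shortest quintile had a median gap of 737 bp and the longest 1362 bp, and in replicate 2 these were 910 and 1639 bp. The distance from the TSS to the upstream end of the stretch had a Spearman correlation of 0.57 with the distance to the upstream peak edge, and the same on the downstream side was 0.49. Across sides the correlations were 0.04, for the upstream end of the stretch with the downstream edge, and 0.01, for the downstream end with the upstream edge. These values are across genes that share their peak lists and their base composition near the TSS, and the cause was not tested. Among the flanked promoters of deciles 1 to 4 of the CpG ratio, 435 in all, the gap did not follow the ratio, with medians between 942 and 1043 bp. From decile 5 to decile 10 the median gap was 666, 842, 928, 1040, 1161 and 1293 bp.

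**Figure D3:**
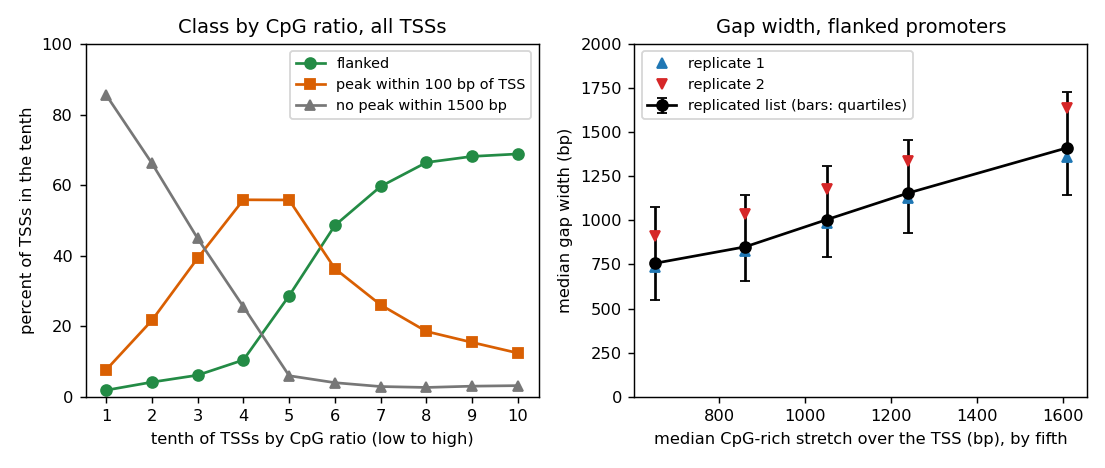
Left, percent of the TSSs in each decile of the CpG ratio (observed over expected) that were flanked on both sides, had a peak within 100 bp or had no peak within 1500 bp. Right, median gap width in bp at flanked promoters by quintile of the length of the CpG-rich stretch over the TSS in bp, for the replicated list (bars are quartiles over promoters) and each replicate. The flanked share is 1.87% in the lowest decile and 68.8% in the highest, and the median gap is 757 bp in the shortest quintile and 1411 bp in the longest.

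Short sequence motifs were counted on both strands in the 300 bp of the RefSeq promoter table, from 250 bp before to 50 bp after the TSS, at 3478 flanked promoters and at all 9841 promoters of that length whose table start was the TSS. Matches of different motifs may share bases and were counted separately. GGGCGG, the GC box of SP1 family factors, was present at 73.9% of the flanked promoters and 41.7% of all. TATAAA, the core of the TATA box, was present at 6.35% of the flanked promoters and 17.4% of all. CCAAT was about as frequent in both, with 40.9% and 40.5%. Motifs that themselves hold a CpG were all more frequent in the flanked promoters than over all, namely CCGGAAG of ETS factors (20.8% and 10.7%), TGCGCA of NRF1 (17.4% and 9.10%), ATGGCG of YY1 (19% and 10.6%), CACGTG, the E-box (11.6% and 7.52%), TGACGT, the CRE core (14.2% and 8.43%), and TCTCGCG (6.58% and 3.04%). The CpG content of the classes differs, and its part in these shares was not tested. Among flanked promoters the median gap was 1196 bp with TCTCGCG and 1032 bp without it. In the same order it was 1107 and 1023 bp for CCGGAAG, 1112.5 and 1027.5 bp for ATGGCG, and 1094 and 1036 bp for TGACGT. It was 1078 and 1043 bp for TATAAA, 1050 and 1042 bp for CCAAT, and 1044.5 and 1045.5 bp for TGCGCA. For GGGCGG it was 1022 and 1099 bp, and for CACGTG 1018 and 1050 bp. These medians were not split by replicate, and over all members the replicate medians were 1011 and 1217 bp. A match is a run of letters and not a bound site.

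Many flanked promoters served a pair of genes. A protein-coding TSS on the opposite strand lay within 1000 bp upstream at 1124 members, or 15.7%, against 2.44% of the TSSs that were not flanked and 7.12% of all. At 1083 of these the neighbour's TSS was inside the same gap, with a median spacing of 85 bp. All 1124 had a median gap of 1298 bp, against 1004 bp at the 6038 members with no such neighbour. The extra width was on the upstream side. The upstream edge lay at a median of 694 bp with an opposite-strand neighbour and 302 bp without, and the downstream edge at 587 and 630 bp. Of the promoters with a neighbour 39.8% had the downstream edge farther away, against 79.4% of those without. In replicate 1 these shares were 40.9% and 76.6%, and in replicate 2 they were 39.9% and 78.7%. In a shared gap the upstream edge of a TSS lies beyond the neighbour's TSS. Both TSSs of a pair therefore cannot have the downstream edge farther away. The share with a neighbour was limited by this in advance, and its contrast with the other promoters cannot be read apart from it.

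**Figure D4:**
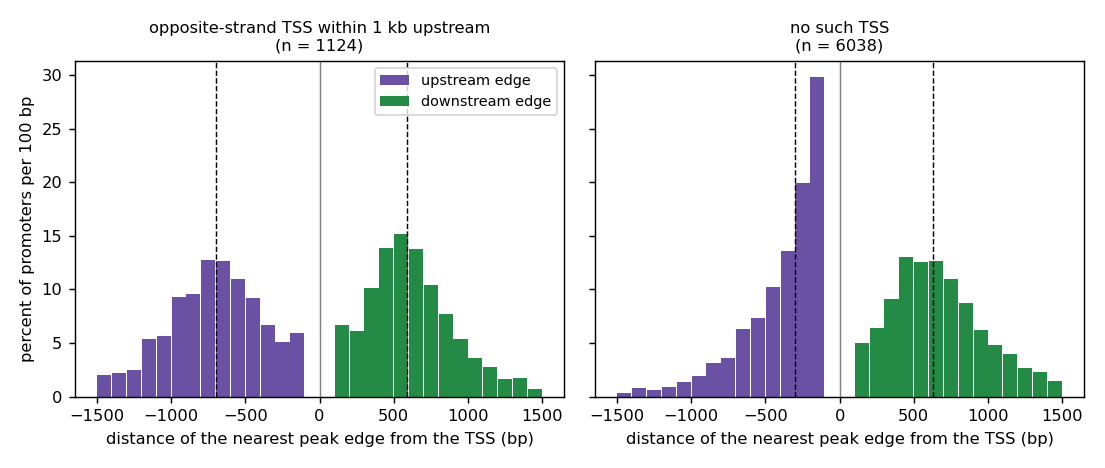
Distance in bp of the nearest peak edge upstream (violet, negative) and downstream (green) of the TSS, as percent of promoters per 100 bp, for the 1124 flanked promoters with an opposite-strand protein-coding TSS within 1 kb upstream (left) and the 6038 without (right). Dashed lines are medians. The upstream edges lie at a median of 694 bp on the left and 302 bp on the right, where they pile up next to the 100 bp limit of the rule.

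Measured from the neighbour's own TSS, the upstream edge lay at a median of 578 bp, close to the 591 bp from the member's TSS to its downstream edge. Since 1040 of the neighbours were themselves members, both values are largely of the same pairs. The 7162 promoters lay in 6387 distinct gaps, of which 770 held 2 or more member TSSs and the fullest held 3. With each gap counted a single time the median width was 1016 bp. Further starts of the same gene were frequent too. Of 5824 members in the promoter table, 1525 had another listed start over 100 bp away, which lay inside the gap at 857 and inside a flanking peak at 147. Genes with a flanked promoter had a median length of 23632 bp, against 17648 bp over all genes, and the gap was nearly unrelated to gene length among members (Spearman correlation 0.06).

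The functions of the members were described with 31 gene lists, set beside the 35.3% of all TSSs that were flanked. In 19 lists the flanked share was above that value, and in 12 it was below. In the replicated list, lists of the general machinery of growing cells stood highest. RNA polymerase II, its general factors and Mediator had 54 of 64 TSSs flanked (84.4%), the aminoacyl-tRNA synthetases 29 of 36 (80.6%), the list of mitosis 36 of 46 (78.3%), cholesterol synthesis 18 of 23 (78.3%) and the proteasome 29 of 38 (76.3%). The subunits of oxidative phosphorylation followed with 60 of 79 (75.9%), mitochondrial ribosomal proteins with 58 of 78 (74.4%), the spliceosome with 49 of 70 (70.0%), DNA replication with 31 of 45 (68.9%) and DNA repair with 41 of 60 (68.3%). In the Polymerase II and Mediator list the shares were 75% in replicate 1 and 85.9% in replicate 2, and in the list of oxidative phosphorylation 72.2% and 77.2%. These lists are rich in CpG, with median CpG ratios between 0.727 (mitochondrial ribosomal proteins) and 0.828 (spliceosome). In the deciles of all TSSs that hold these ratios, 59.6% to 68.1% were flanked. The part of CpG content in the list shares was not tested.

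**Figure D5:**
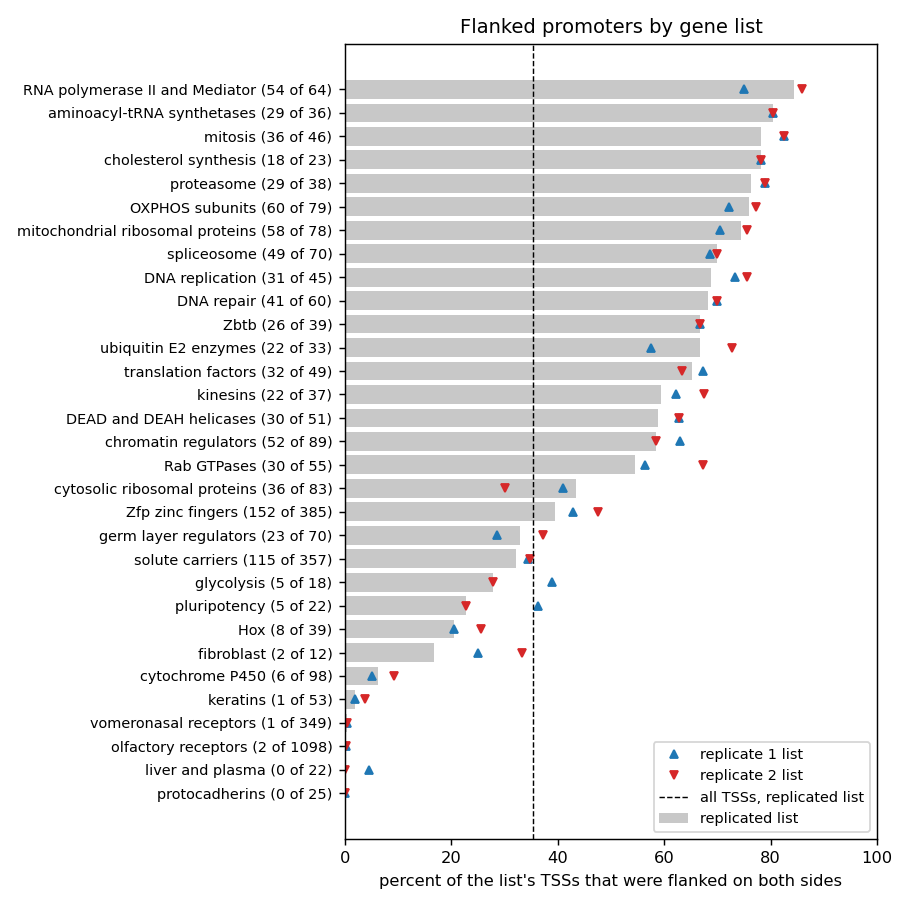
Percent of the TSSs of each of 31 gene lists that were flanked on both sides, in the replicated list (grey bars) and by the same rule in replicate 1 (blue) and replicate 2 (red), with the counts in parentheses. The dashed line is the 35.3% of all TSSs. In the replicated list RNA polymerase II and Mediator is highest at 84.4%, and the protocadherin and the liver and plasma protein lists have no flanked TSS. In replicate 1 mitosis is highest at 82.6%, and the liver and plasma list has 1 flanked TSS.

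Within the machinery lists gap widths ranged widely. Med27, a Mediator subunit, had the narrowest gap of its list at 480 bp, with 469 bp in replicate 1, where a peak edge came within 100 bp of the TSS, and 548 bp in replicate 2. Taf4, a subunit of TFIID, had the widest at 2007 bp, with 1983 and 2151 bp in the replicates. Among respiratory chain genes Cox5b, a subunit of cytochrome c oxidase, had the narrowest gap at 419 bp, with 388 bp in replicate 1 and 871 bp in replicate 2, and Atp5b, the beta subunit of ATP synthase, the widest at 2347 bp, with 1232 bp in replicate 1 and 2391 bp in replicate 2, where it was not flanked because the downstream edge lay at 1509 bp. The complex I subunit Ndufa7 and the ribosomal protein gene Rps28 start 10 bp apart in a shared gap of 2246 bp, which was 2474 bp in replicate 1, where Ndufa7 had the mark downstream only, and 2386 bp in replicate 2. Of mitochondrial ribosomal protein genes, Mrpl16 had the narrowest gap at 473 bp, with 485 bp in replicate 1, where a peak edge lay 77 bp from the TSS, and 580 bp in replicate 2. Mrpl20 had the widest at 2253 bp, but in replicate 1 a peak came within 100 bp of its TSS and the gap was 546 bp, against 2311 bp in replicate 2. Mrpl51 shares a gap of 1923 bp, with 1932 and 1995 bp in the replicates, with the condensin subunit Ncapd2, whose TSS is 100 bp away.

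In the lists of replication and mitosis the median gap was 1221 and 1220 bp. The sliding clamp Pcna shares a gap of 2378 bp with Cds2, a phospholipid enzyme that starts 158 bp away, and the gap was 2414 bp in replicate 1 and 2452 bp in replicate 2. The origin factor Cdc6 had a gap of 539 bp, with 420 and 784 bp in the replicates. The spindle motor Kif11 had 1865 bp, with 1885 and 1896 bp in the replicates. In the list of DNA repair 21 of the 41 flanked promoters had an opposite-strand neighbour, and in that of oxidative phosphorylation 23 of 60, beside 15.7% of all flanked promoters. Among chromatin regulators 3 of 52 had one. Among cholesterol genes 1 of 18 had such a neighbour.

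Chromatin regulators were flanked at 52 of 89 TSSs (58.4%). Their median CpG ratio was 0.830, and in the decile of all TSSs that holds this ratio 68.1% were flanked. Kdm2b, a histone demethylase whose CXXC domain binds unmethylated CpGs, had the narrowest gap of that list at 452 bp, with 359 bp in replicate 1, where a peak edge lay 94 bp from the TSS, and 633 bp in replicate 2. Zinc-finger genes named Zfp were flanked at 152 of 385 TSSs (39.5%), close to the share over all TSSs, and solute carriers at 115 of 357 (32.2%). Zfp654 had the widest gap among the Zfp genes, 2144 bp, with 2082 and 2149 bp in the replicates, and Zfp94 the narrowest, 280 bp. In replicate 1 the gap at Zfp94 was 319 bp, while in replicate 2 a downstream peak came to 50 bp from the TSS, the nearest upstream edge was 8968 bp away and the gap was 9017 bp. Of the solute carriers, Slc8b1, the mitochondrial sodium-calcium exchanger, had the narrowest gap at 279 bp, with 255 bp in replicate 1, where a peak edge lay 92 bp from the TSS, and 492 bp in replicate 2. Slc12a1, the sodium-potassium-chloride cotransporter of the kidney, had the widest at 2393 bp, and its upstream peak was only 200 bp wide. It was flanked in replicate 2 alone, as the downstream edge lay at 1615 bp in replicate 1 and 1431 bp in replicate 2.

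Cytosolic ribosomal protein genes had a lower flanked share than the machinery lists named above. Of 83 TSSs 36 were flanked (43.4%), beside 35.3% of all TSSs. In replicate 1 the count was 34 (41.0%, beside 35.9% of all TSSs). In replicate 2 it was 25 (30.1%, beside 38.6%). The list thus lay above the share of all TSSs in replicate 1 and below it in replicate 2. Its median CpG ratio was 0.818, and in the decile of all TSSs that holds this ratio 66.4% were flanked. In the replicated list 30 had the mark within 1500 bp upstream only, beside 3.85% of all TSSs. Other lists shared this in part. The mark was upstream only at 9 of 49 translation factors, whose 32 flanked members had a median gap of 1334 bp. It was so at 11 of 89 chromatin regulators, but at 1 of 79 subunits of oxidative phosphorylation. The flanked cytosolic ribosomal protein genes had a median gap of 1982 bp, from 1066 bp at Rps27 to 2506 bp at Rpl23a. Over all flanked promoters it was 1045 bp. Their median upstream edge lay at 746 bp and the downstream edge at 1218 bp. Rpl14 and Rps6 were members with a downstream edge at 1496 and 1483 bp, next to the outer limit of 1500 bp, and each was flanked in a single replicate.

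Regulators of embryonic stem cells were flanked at 5 of 22 TSSs (22.7%), beside 35.3% of all TSSs. In replicate 1 they were flanked at 8 (36.4%), near the 35.9% of all TSSs in that list. In replicate 2 they were flanked at 5 (22.7%), beside 38.6%, so the low share was seen in 1 replicate only. In the replicated list 11 of 22 had the mark upstream only, beside 3.85% of all TSSs. The flanked ones were Klf4 and Tfcp2l1, transcription factors of naive pluripotency, Tbx3, Dppa2 and Dppa3. Klf4 had a gap of 2175 bp, with 2029 bp in replicate 1 and 3105 bp in replicate 2, where it exceeded what the rule allows. Tfcp2l1 had a gap of 567 bp, with 484 and 755 bp in the replicates. At Pou5f1, which encodes OCT4, the nearest downstream peak edge was 2048 bp away, at Nanog 2438 bp and at Sox2 4699 bp, and in the replicated list these had the mark upstream only. The replicates differed there. In replicate 1 a peak lay within 100 bp of the TSS at Pou5f1 and Nanog, and in replicate 2 Sox2 had no peak within 1500 bp. The gap at Nanog was 1543 bp in replicate 1 and 3583 bp in replicate 2. Over the 781 TSSs of that class the median gap was 3145 bp, and the downstream edge lay within 3000 bp at 443. Of glycolysis genes 5 of 18 were flanked, among them Pgam1 with a gap of 2255 bp, which was flanked in replicate 1 and had the mark upstream only in replicate 2, and 4 had the mark upstream only. By replicate, 7 of the 18 were flanked in replicate 1 (38.9%) and 5 in replicate 2 (27.8%), beside 35.9% and 38.6% of all TSSs.

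Regulators of later development had the mark on the TSS more often than around it. Of 70 germ layer regulators 23 were flanked (32.9%) and 42 had a peak within 100 bp of the TSS, and of 39 Hox genes 8 were flanked (20.5%) and 28 had such a peak. Over all TSSs 35.3% were flanked and 28.4% had a peak within 100 bp. The flanked share of the germ layer regulators was thus near that of all TSSs, but below that of TSSs of similar CpG ratio. Their median CpG ratio was 0.682, and that of the Hox genes 0.646. In the deciles of all TSSs that hold these ratios, 59.6% and 48.6% were flanked. The flanked germ layer regulators had a median gap of 977 bp. Msx1, a homeobox factor, had the narrowest at 359 bp, with 330 bp in replicate 1 and 1028 bp in replicate 2. Nkx6-1, a homeobox factor of pancreas and neural tube, had the widest at 2033 bp, with 1463 and 2110 bp in the replicates. Gene families of differentiated tissues were rarely flanked. Cytochrome P450 genes were flanked at 6 of 98 TSSs, keratins at 1 of 53, vomeronasal receptors at 1 of 349, olfactory receptors at 2 of 1098, and protocadherins (25 TSSs) and liver and plasma protein genes (22 TSSs) at 0. Most TSSs of the olfactory (1063) and vomeronasal (345) families had no peak within 1500 bp. The median CpG ratios of the families named as rarely flanked lay between 0.104 and 0.418. In the deciles of all TSSs that hold these ratios, 1.87% to 10.4% were flanked.

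Some TSSs missed the rule by a short distance. Of the 5773 TSSs with a peak within 100 bp, 1758 were not themselves covered. At 1125 of these the upstream edge alone lay within 100 bp, at 511 the downstream edge alone, and at 122 both did. Where the mark was downstream only, the upstream edge was far away, at a median of 9726 bp.

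The broader intervals deposited for the mm9 genome come in steps of 200 bp. In them, 5177 of the 6992 members with an mm9 start were flanked by the same rule (74.0%). Over all 19272 TSSs with an mm9 start the flanked share was 34.8%. Of the members, 1568 (22.4%) had an interval within 100 bp of the TSS. The mm9 list of replicate 1 had 4796 members flanked (68.6%), beside 31.7% of all these TSSs. That of replicate 2 had 5206 (74.5%), beside 34.9%. Both the intervals and the gene starts differ here from those on mm10, and their parts were not told apart. Flanked promoters occurred on every autosome, from 28.5% of the TSSs of chromosome 14 to 41.6% of those of chromosome 8.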

How the data were processed

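H3K4me1 ChIP-seq was analysed in 2 biological replicates of E14TG2a.4 cells, numbered as in the labels. Per the file headers of the read-me texts, the mm10 files are narrowPeak lists of the replicates, of their pool and of the peaks that the authors kept as replicated, and the mm9 files are broadPeak lists. How reads were aligned and peaks called is not given in the sources used here. In the deposited mm10 lists a peak has a signal value and a −log10 q. In the deposited mm9 lists it has a signal value and a q-value. No read counts are given, so depth is unknown and no interval was computed. Mean and SD describe these 2 libraries. With 1 group and members chosen from the same peaks, no test was made.

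Genes came from RefSeq GRCm38.p6. Strands came from its promoter table (16457 genes), else from GENCODE vM1 by symbol (3486) or synonym (357), and where both sources gave a strand they differed at 42 of 15471 genes. CpG values were read from the mm9 genome at the GENCODE start of the gene or, for 3235 members, at the match of 100 promoter bases, so no coordinate was converted. CpG-rich windows moved in steps of 10 bp, and joining them lengthens a stretch at its ends. Exons and a genome on mm10 were not used here. A peak overlapped from 1 bp. Peak edges, gaps and counts were computed from the lists as deposited, with functions tested on simulated data.

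The members and gene lists (15 written out by symbol and 16 by symbol pattern) were chosen with earlier results of these data known. Named genes were the 5 widest and 5 narrowest gaps, the 5 widest summed flanking peaks and the 5 highest weaker signals among members flanked in both replicates, the extremes of the 6 lists with most flanked members, and 2 genes at each side of the limits. Symbols of unnamed genes and chromosome 18 (170 members) were passed over. Genes with printed sequence and other list members were chosen after their values were seen. Alternatives were the pooled list, a −log10 q of at least 2, other windows, a flank overlap of 50 bp, the mm9 lists, leaving out each replicate and, added after seeing the data, counting each gap a single time. Scripts ran in Python 3.11.15 with pandas 2.3.3, scipy 1.17.1, numpy 2.4.6 and matplotlib 3.10.9.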

Additional observations from a re-analysis of the deposited data

How the results depend on the processing

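The number of flanked promoters was 7162, lay between 7282 and 7835 with a replicate left out, and ranged from 5046 with a central window of 200 bp to 8042 with 50 bp. The pooled list gave 7543. It holds all 226060 replicated peaks with the same coordinates, so it is not an independent alternative. The median gap of 1045 bp was 1191 bp with a central window of 200 bp, 928 bp with an outer limit of 1000 bp and 800 bp with the mm9 list, whose intervals come in steps of 200 bp. The mm9 list was used with mm9 gene starts, so its values differ from the main ones in both intervals and TSSs. The median gap lay between 1017 and 1144 bp with a replicate left out. The share with the downstream edge farther away, 73.2%, was 74.0% with the pooled list, 73.9% with a central window of 50 bp, 68.2% with 200 bp, 73.9% with an outer limit of 1000 bp, 72.7% with 2000 bp and 71.8% with the mm9 list, and between 72.8% and 73.3% with a replicate left out. The median CpG ratio of 0.774 was 0.762 with a central window of 50 bp, 0.799 with 200 bp, 0.762 with an outer limit of 1000 bp and 0.799 with the mm9 list, and between 0.760 and 0.775 with a replicate left out. Of 31 gene lists, 19 had a flanked share above that of all TSSs, against 21 in replicate 1, 18 in replicate 2 and 19 in the pooled list. A −log10 q of at least 2 and a flank overlap of 50 bp moved none of the first 4 results beyond the replicate spread. No paired analysis was possible because there is 1 group. No input library and no transcription data were analysed here, and the rule sets the smallest and largest gap it can find.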
